A study of Mus musculus with 7 samples.

Results

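The genes described here encode the ligands, extracellular binding proteins, receptors, Smads and Smad regulators of BMP and TGF-beta signaling. They were chosen by gene name (symbols starting with Bmp and a digit, Bmpr, Smad, Tgfb, Acvr, Inhb, Gdf, Ltbp or Fst, and also Nog, Chrd, Grem1, Bambi, Eng, Smurf1, Smurf2, Ski and Skil). A gene also had to reach at least 1 TPM in at least 2 of the 7 libraries. TPM is a length-corrected share of a library's transcripts. By name, 68 of the 24978 rows matched, and 49 of these passed the TPM filter, as did 15931 rows of the whole table. The name rule also takes in Bmp2k, Tgfb1i1 and Tgfbrap1, which encode neither a ligand, a receptor nor a Smad. RNA came from HopX-positive cells that were sorted by flow cytometry from C57BL/6 mouse brain at embryonic day 15 (E15, n = 2), at postnatal day 3 (P3, n = 2, replicates 1 and 3) and in the adult (n = 3). Hopx encodes an atypical homeodomain protein of radial glia, adult neural stem cells and astrocytes. All groups share the strain and the HopX gate. The labels give no treatment, no brain region, no adult age and no way in which HopX was detected, so region and stage cannot be told apart. It is not stated whether the replicates are different animals, so the p-values may cover technical spread alone.

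BMPs bind type I and type II serine/threonine kinase receptors, which phosphorylate Smad1, Smad5 and Smad9. TGF-betas and activins use other type I receptors and phosphorylate Smad2 and Smad3, and both groups of Smads enter the nucleus with Smad4. In the brain, BMP signaling through the Id genes is known to favour astrocyte formation and to hold adult neural stem cells in quiescence, and TGF-beta2 is known as a ligand made by radial glia and astrocytes.

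Genes of the labelled cell type, neural progenitors, were present in every library. The summed level of 10 progenitor markers was 5489 to 6409 TPM in E15 libraries, 16217 to 24958 TPM in P3 libraries, and 6987 to 7616 TPM in adult libraries, with none of them at 0. Fabp7 and Slc1a3, which astrocytes also express, carried most of that sum (1829 and 4570 TPM of 7249 TPM in Adult replicate 1). The defining marker Nes was at 0.321 to 1.69 TPM in the adult against 19.3 and 20.9 TPM at E15. Pax6, Hes5, Hes1, Vim and Fabp7 were also lower in every adult library than in either E15 library. Sox2, Prom1, Slc1a3 and Hopx went the other way. Sox2 was at 58.7 to 82.9 TPM in the adult against 27.6 and 26.7 TPM at E15. Prom1 was at 164 to 195 TPM in the adult against 75.0 and 62.4 TPM at E15. Hopx, the gene of the gate, was at 60.5 and 62.9 TPM in E15 libraries and at 220 to 249 TPM in the adult. Other cell types moved with stage. The sum of 7 young neuron markers was 1807 and 2081 TPM in E15 libraries, 229 TPM in P3 replicate 1, 1092 TPM in P3 replicate 3 and 65.3 to 98.7 TPM in the adult. That of 9 astrocyte markers was 583 and 739 TPM, 4495 and 2874 TPM, and 12598 to 14268 TPM. Aldoc made up most of it, at 662 TPM in E15 replicate 1, 2733 TPM in P3 replicate 1 and 9079 TPM in Adult replicate 1. Agt, Gja1, Gjb6, S100b and Slc1a2 were, like Aldoc, higher in every adult library than at P3. Gfap was lower in the adult (105 to 110 TPM) than at P3 (361 and 161 TPM), and Aldh1l1 and Aqp4 overlapped between these stages. The sum of 15 microglia markers was 9.23 and 9.72 TPM in E15 libraries, 111 and 82.3 TPM in P3 libraries, and 425 to 599 TPM in adult libraries. The sum of 6 ependymal markers was highest at P3, with 75.8 and 102 TPM in E15 libraries, 741 and 441 TPM in P3 libraries, and 89.1 to 108 TPM in adult libraries. Mia made up most of the E15 and adult sums, at 66.9 and 86.3 TPM and at 65.1 to 80.1 TPM. Each of these markers was highest at P3, where Mia was at 375 and 189 TPM, but Foxj1 reached only 0.596 TPM. Mature oligodendrocyte markers summed to 696 TPM in Adult replicate 1 and 475 TPM in Adult replicate 3 but to 81.7 TPM in Adult replicate 2. In bulk RNA, fewer cells of a type and less RNA per cell cannot be told apart. The depth of the libraries is unknown, because TPM keeps none.

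Summed over the 49 genes, the level was 579 and 582 TPM in E15 libraries, 620 and 615 TPM in P3 libraries, and 482 to 537 TPM in adult libraries. Among single genes, 9 had a mean of at least 20 TPM over all libraries and 13 a mean under 2 TPM. The highest were Fstl1 (102 TPM), Tgfb2 (44.8 TPM), Bmpr1a (33.3 TPM), Smad2 (27.5 TPM) and Smad4 (23.6 TPM). The 19 genes that matched by name but not by level included 12 ligands, and none of the 19 exceeded 2.54 TPM in any library. Bmp2 and Bmp4, the best known BMP ligands, reached at most 0.703 and 0.940 TPM. The endothelial co-receptor gene Eng reached 0.454 TPM and the endothelial type I receptor gene Acvrl1 0.326 TPM. The endothelial genes Cldn5, Cdh5 and Tek were likewise at no more than 0.910 TPM in any library, although Pecam1 was at 87.7 to 186 TPM. Among the other endothelial markers, Slco1a4 and Ly6c1 reached 12.4 and 5.38 TPM in Adult replicate 2, and Kdr 2.73 TPM in E15 replicate 1. Esam, Emcn, Tie1 and Flt1 reached at most 2.09, 1.89, 1.36 and 0.996 TPM.

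**Figure D1:**
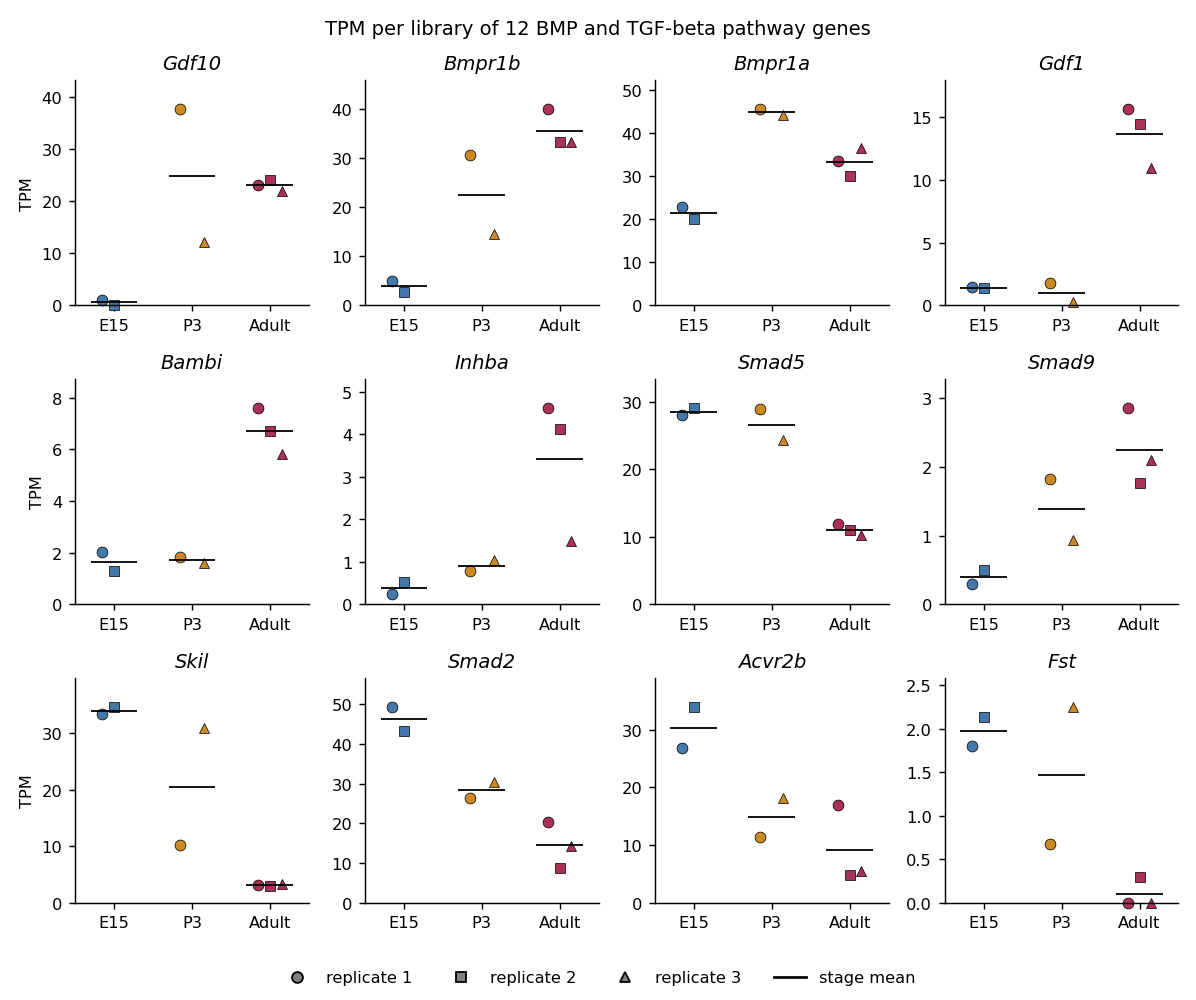
TPM of 12 genes (y axis, linear from 0) by stage (x axis); each symbol is 1 library, its shape the replicate number, and the line the stage mean. Gdf10 and Bmpr1b are low at E15 alone, Gdf1 and Bambi are high in the adult alone, and Smad5 and Skil are lowest in the adult.

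Among the ligands, Gdf10, a TGF-beta superfamily member closely related to Bmp3, had the largest change. Gdf10 (ENSMUSG00000021943) was at 1.08 TPM and listed at 0 in the E15 libraries, at 37.7 and 12.2 TPM at P3, and at 23.2, 24.2 and 22.0 TPM in the adult. All P3 and adult libraries lay above both E15 libraries, and the adult values fell within the wide span of the P3 values. Gdf10 rose by 3.97 on the log2(TPM + 1) scale between E15 and P3 (SE 0.54, limma, Benjamini-Hochberg adjusted p = 0.00448). Its difference between the adult and P3 was 0.09 (SE 0.50, 95% interval -1.05 to 1.23, limma adjusted p = 0.922), and that between the adult and E15 was 4.06 (SE 0.50, adjusted p = 0.000455). All log2 differences are on this scale, which understates the change of genes with low values.

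Gdf1, a ligand known for its part with Nodal in left-right patterning, changed later. It was at 1.45 and 1.37 TPM in E15 libraries, 1.74 and 0.256 TPM in P3 libraries, and 15.6, 14.5 and 10.9 TPM in adult libraries. Every adult library lay above every earlier one. From P3 to the adult Gdf1 rose by 2.97 (SE 0.42, limma, Benjamini-Hochberg adjusted p = 0.0023). Gdf1 overlaps Cers1, a ceramide synthase gene, over 15814 bases in the RefSeq annotation of GRCm38.p6, and no source used here says how reads were divided between them. The row of Cers1 was at 0.161 to 0.776 TPM over all libraries, with no rise in the adult.

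Inhba, which encodes the subunit of activin A, was at 0.237 and 0.515 TPM in E15 libraries, 0.778 and 1.03 TPM in P3 libraries, and 4.62, 4.13 and 1.497 TPM in adult libraries. The 3 stages did not overlap, and Adult replicate 3 was nearest to the P3 libraries. Inhba rose from E15 to the adult by 1.60 (SE 0.44, limma, Benjamini-Hochberg adjusted p = 0.0198). Bmp7, the higher of the BMP-named ligand genes Bmp3 and Bmp7, went the other way. It was at 11.3 and 9.10 TPM in E15 libraries, 6.51 and 7.25 TPM in P3 libraries, and 5.81, 5.22 and 2.94 TPM in adult libraries, and fell by 1.02 on the log2 scale from E15 to the adult (SE 0.35, limma, Benjamini-Hochberg adjusted p = 0.0486).

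The TGF-betas themselves did not pass in any comparison. Tgfb2, the ligand with the highest level, was at 44.6 and 39.6 TPM in E15 libraries, 61.7 and 49.1 TPM in P3 libraries, and 45.7, 36.3 and 36.8 TPM in adult libraries. The P3 libraries lay above the others, but neither difference passed (limma, Benjamini-Hochberg adjusted p = 0.355 for the first and 0.146 for the second step). Tgfb2 made up 87.9% to 94.2% of the summed TPM of the 3 TGF-beta genes in every library. Tgfb1, the TGF-beta known from microglia, was at 1.81 and 2.03 TPM at E15, against 0.754 and 0.790 TPM at P3, then 0.913 to 1.44 TPM in the adult. It was thus lowest at P3, while the microglia sum rose in both steps, and the part of microglia in its level was not tested. The remaining ligands (Bmp3, Gdf3, Gdf9, Gdf11, Inhbb, Inhbe and Tgfb3) did not pass in any comparison. Among them Gdf9 was listed at 0 in Adult replicates 1 and 2 and was at 3.55 TPM in Adult replicate 3.

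Of the 9 extracellular proteins, Fstl1, a secreted follistatin-like glycoprotein, had the highest level. It was at 100.3 and 103 TPM in E15 libraries, 120.1 and 145 TPM in P3 libraries, and 86.3, 80.1 and 79.8 TPM in adult libraries. The adult libraries lay below all others. Fstl1 fell by 0.68 on the log2 scale from P3 to the adult (SE 0.16, limma, Benjamini-Hochberg adjusted p = 0.0182). Fst encodes follistatin, which binds activins and blocks them. It was low throughout, at 1.80 and 2.13 TPM in E15 libraries, at 0.677 and 2.25 TPM at P3, and in the adult listed at 0 in replicates 1 and 3 and at 0.301 TPM in replicate 2. Fst fell from E15 to the adult by 1.44 on the log2 scale (SE 0.39, limma, Benjamini-Hochberg adjusted p = 0.0202).

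Bmp1 encodes a metalloprotease that cleaves the BMP antagonist chordin and is no BMP ligand. It was at 5.49 and 7.05 TPM in E15 libraries, 9.12 and 7.69 TPM in P3 libraries, and 14.2, 12.4 and 12.1 TPM in adult libraries, with no overlap between stages. Its difference from E15 to the adult was 0.94 (SE 0.28, limma, Benjamini-Hochberg adjusted p = 0.0294). Ltbp4, a latent TGF-beta binding protein of the matrix, was at 8.01 and 5.63 TPM in E15 libraries, 1.67 and 7.15 TPM in P3 libraries, and 2.18, 1.16 and 0.479 TPM in adult libraries. P3 replicate 3 was near the E15 libraries and P3 replicate 1 near the adult ones. Ltbp4 fell by 1.84 on the log2 scale from E15 to the adult (SE 0.55, limma, Benjamini-Hochberg adjusted p = 0.0288). The BMP antagonist genes Nog (1.29 to 4.77 TPM) and Chrd (0.610 to 2.26 TPM), and Fstl5, Ltbp1 and Ltbp3, did not pass in any comparison.

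Among the receptors, the type I BMP receptor genes Bmpr1a and Bmpr1b rose from E15 to P3, and a further type I receptor gene for BMPs, Acvr1, did not pass (8.56 and 7.61 TPM against 6.13 and 6.98 TPM, limma, Benjamini-Hochberg adjusted p = 0.674). Bmpr1b was at 5.01 and 2.75 TPM in E15 libraries, 30.6 and 14.5 TPM in P3 libraries, and 39.8, 33.2 and 33.3 TPM in adult libraries. The stages did not overlap, and the P3 libraries differed from each other by more than the adult libraries did. Bmpr1b rose by 2.22 between E15 and P3 (SE 0.40, limma, Benjamini-Hochberg adjusted p = 0.0150) and its difference from E15 to the adult was 2.93 (SE 0.36, adjusted p = 0.00049). Bmpr1a was at 22.8 and 20.04 TPM in E15 libraries, 45.5 and 44.3 TPM in P3 libraries, and 33.5, 30.1 and 36.5 TPM in adult libraries. It was highest at P3, and its adult libraries lay between the other stages. Bmpr1a rose by 1.04 between E15 and P3 (SE 0.22, limma, Benjamini-Hochberg adjusted p = 0.0313), and from E15 to the adult the difference was 0.62 (SE 0.20, adjusted p = 0.0411).

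The share of each in the pair was also set out by library. Bmpr1b made up 18.0% and 12.1% of the summed TPM of both genes at E15, 40.2% and 24.6% in P3 libraries, and 54.3%, 52.4% and 47.7% in adult libraries. Their sum was 27.8 and 22.8 TPM in E15 libraries, 76.1 and 58.7 TPM in P3 libraries, and 63.4 to 73.4 TPM in adult libraries. These shares are given as a description, with no test.

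**Figure D2:**
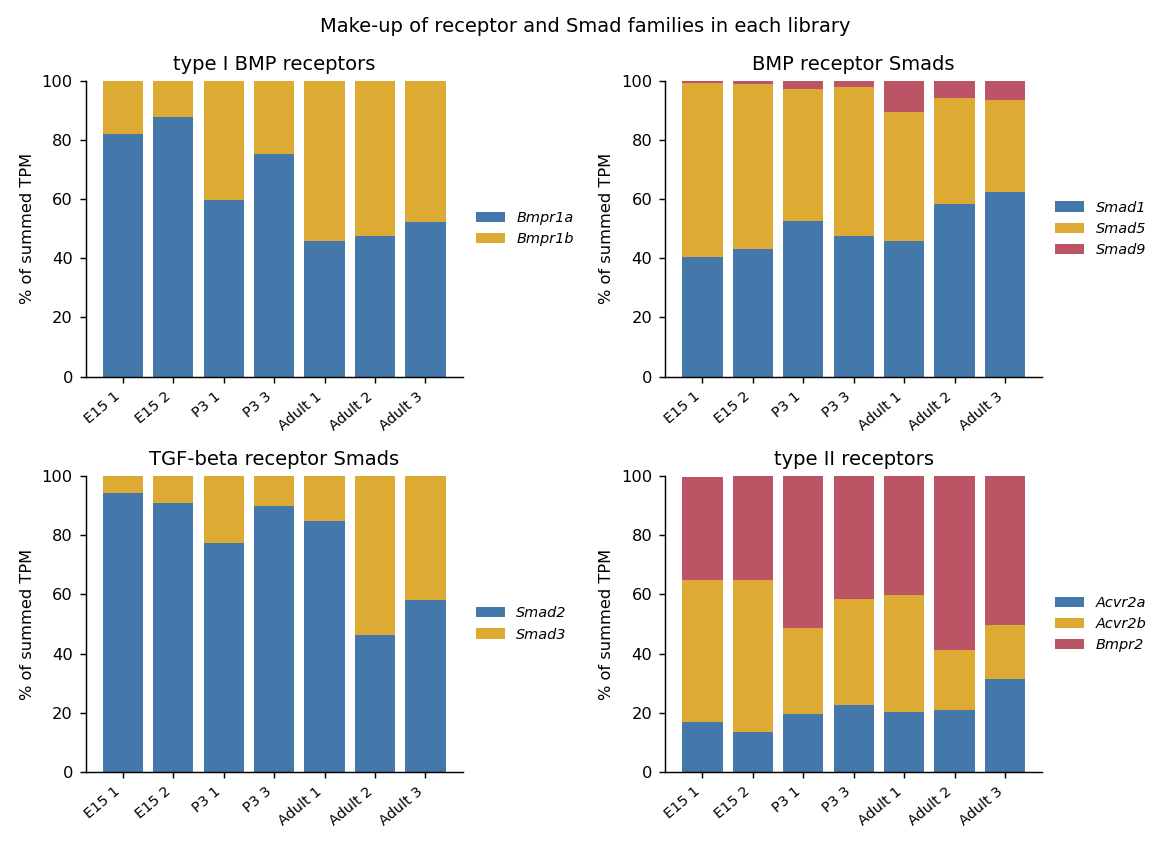
Share of each gene (% of the family's summed TPM, y axis from 0 to 100) in each library (x axis, stage and replicate number) for 4 families. The share of Bmpr1b is 12.1% to 18.0% at E15 and 47.7% to 54.3% in the adult, and the share of Smad3 differs widely among the adult libraries.

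The upstream sequences of 5 genes are shown. Gdf10, Bmpr1a and Bmpr1b are the genes that passed from E15 to P3. They are set beside the receptor Smads of the BMP branch that fell (Smad5) and rose (Smad9) from E15 to the adult. The calls of Gdf10, Bmpr1a and Bmpr1b from E15 to P3, and that of Smad9, depended on single libraries, as given further on. Each sequence is the 250 bases before the most upstream start that RefSeq gives on GRCm38.p6, written 5′ to 3′ on the gene's strand. Bmpr1a lies at chr14:34502547-34502796 (minus strand), Bmpr1b at chr3:141982265-141982514 (minus), Gdf10 at chr14:33923337-33923586 (plus), Smad5 at chr13:56702760-56703009 (plus) and Smad9 at chr3:54755332-54755581 (plus). Capitals mark GGCGCC, a GC-rich element that BMP Smads can bind.
Bmpr1a: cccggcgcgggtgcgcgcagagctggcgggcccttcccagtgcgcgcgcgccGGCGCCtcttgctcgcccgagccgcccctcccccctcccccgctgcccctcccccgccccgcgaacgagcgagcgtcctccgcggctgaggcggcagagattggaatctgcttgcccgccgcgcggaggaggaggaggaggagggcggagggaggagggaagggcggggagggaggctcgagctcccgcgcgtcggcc
Bmpr1b: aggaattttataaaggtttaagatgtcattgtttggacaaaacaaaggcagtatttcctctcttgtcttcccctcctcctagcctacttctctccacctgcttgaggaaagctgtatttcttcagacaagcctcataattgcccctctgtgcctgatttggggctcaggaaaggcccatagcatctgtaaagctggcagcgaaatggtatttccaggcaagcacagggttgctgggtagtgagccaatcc
Gdf10: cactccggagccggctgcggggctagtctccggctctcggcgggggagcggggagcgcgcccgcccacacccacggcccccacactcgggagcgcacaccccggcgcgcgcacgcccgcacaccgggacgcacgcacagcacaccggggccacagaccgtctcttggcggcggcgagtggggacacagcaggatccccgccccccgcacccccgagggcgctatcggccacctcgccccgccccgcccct
Smad5: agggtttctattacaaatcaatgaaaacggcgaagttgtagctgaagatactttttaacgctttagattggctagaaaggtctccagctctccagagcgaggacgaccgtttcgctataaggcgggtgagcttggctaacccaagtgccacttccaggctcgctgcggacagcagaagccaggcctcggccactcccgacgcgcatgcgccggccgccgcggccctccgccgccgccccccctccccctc
Smad9: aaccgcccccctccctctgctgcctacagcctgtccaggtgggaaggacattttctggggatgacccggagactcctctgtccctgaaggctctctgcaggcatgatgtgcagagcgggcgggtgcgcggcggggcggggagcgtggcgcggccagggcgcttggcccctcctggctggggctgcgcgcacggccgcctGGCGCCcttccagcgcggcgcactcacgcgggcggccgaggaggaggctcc

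The windows of the receptor pair differ in base composition, with 78.8% G and C in Bmpr1a against 46.8% in Bmpr1b. In all, 3 motifs were searched on both strands in the 250 bases before every start in the table, namely GGCGCC, GTCTAGAC (the palindromic Smad element) and AGCCAGACA (the CAGA box). GGCGCC reads the same on both strands, and none of the motifs overlaps another. Of the 34 genes with a window, 12 held GGCGCC before at least 1 start (35.3%), against 18.8% of the 10846 tested genes with a window and 10.8% of all 27025 genes in the table. The motif was found before Bmpr1a, Smad9 and another start of Smad5, and was not found in the windows of Bmpr1b or Gdf10. GTCTAGAC and AGCCAGACA were found in none of the 34, and in 0.24% and 0.313% of tested genes. The sets of genes were not matched for G and C content or for the number of starts, and the shares were not tested. Such a match is a run of letters and no evidence of binding.

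Bambi, a receptor-like protein that lacks the kinase and dampens signaling, differed between the adult and both earlier stages. It was at 2.01 and 1.27 TPM in E15 libraries, 1.84 and 1.61 TPM in P3 libraries, and 7.60, 6.70 and 5.84 TPM in adult libraries. Bambi rose by 1.495 from P3 to the adult (SE 0.34, limma, Benjamini-Hochberg adjusted p = 0.0160), and its difference from E15 to P3 was 0.06 (SE 0.37, adjusted p = 0.946).

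An activin and a TGF-beta receptor gene were lower in the adult than at E15. Acvr2b, a type II receptor for activins, was at 26.8 and 34.0 TPM in E15 libraries, 11.4 and 18.3 TPM in P3 libraries, and 16.9, 4.83 and 5.53 TPM in adult libraries. Adult replicate 1 lay within the P3 span and the other adult libraries below it. Acvr2b fell by 1.83 on the log2 scale from E15 to the adult (SE 0.49, limma, Benjamini-Hochberg adjusted p = 0.0189). Tgfbr1, the type I receptor for TGF-beta, was at 19.8 and 22.0 TPM in E15 libraries, 8.06 and 14.1 TPM in P3 libraries, and 14.3, 7.70 and 6.13 TPM in adult libraries. It fell by 1.16 on the log2 scale from E15 to the adult (SE 0.39, limma, Benjamini-Hochberg adjusted p = 0.0464). Its partner Tgfbr2 was at 0.432 to 1.39 TPM in all libraries, far below Tgfbr1.

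Bmpr2, the type II BMP receptor gene, was at 19.4 and 23.3 TPM in E15 libraries, 19.9 and 21.3 TPM in P3 libraries, and 14.1 to 17.2 TPM in adult libraries, and did not pass in any comparison (limma, Benjamini-Hochberg adjusted p = 0.178 from E15 to the adult). Acvr1, Acvr1b, Acvr2a, Tgfbr3 and Tgfbr3l did not pass either. Tgfbr3l, whose protein resembles the co-receptor betaglycan, had the widest spread of the 49 genes within the adult. It was at 8.84 TPM in Adult replicate 1, 0.274 TPM in replicate 2 and 17.5 TPM in replicate 3. The libraries with high Tgfbr3l were those with high mature oligodendrocyte markers, and the part of these cells in its level was not tested.

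Of the 12 Smads and intracellular regulators, 5 were lower in the adult than at E15 (41.7%) and 1 was higher (8.33%), beside 24.7% and 15.4% of all genes tested. The shares lower and higher were 7.69% and 23.1% for the 13 ligands, 22.2% and 11.1% for the 9 extracellular proteins, and 16.7% and 25% for the 12 receptors. Of the 5 that were lower, Smad4 did not pass with median-of-ratios scaling, and neither Smad4 nor Smad7 passed with quantile normalization. Skil encodes SnoN, a repressor of Smad-driven transcription, and had the largest fall of the 49 genes. It was at 33.4 and 34.7 TPM in E15 libraries, 10.3 and 30.9 TPM in P3 libraries, and 3.23, 3.07 and 3.33 TPM in adult libraries. P3 replicate 3 was near the E15 level, and the adult libraries lay below all others and close together. Skil fell by 2.17 on the log2 scale from P3 to the adult (SE 0.42, limma, Benjamini-Hochberg adjusted p = 0.00864), and by 3.06 when the adult was compared with E15 (SE 0.42, adjusted p = 0.000834). Across the P3 libraries Skil was high where the young neuron sum was high (30.9 TPM with 1092 TPM, and 10.3 TPM with 229 TPM), and the part of young neurons in its level was not tested. Its relative Ski, at 9.62 to 19.8 TPM over all libraries, did not pass in any comparison.

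The BMP-regulated Smads differed among themselves. Smad5 was at 28.0 and 29.1 TPM in E15 libraries, 28.9 and 24.4 TPM in P3 libraries, and 11.8, 11.0 and 10.3 TPM in adult libraries, so that the earlier stages overlapped and the adult lay below both. Smad5 fell from P3 to the adult by 1.20 on the log2 scale (SE 0.23, limma, Benjamini-Hochberg adjusted p = 0.00821), and by 1.30 when compared with E15 (SE 0.23, adjusted p = 0.00284). Smad9 was low but higher in the adult, at 0.292 and 0.501 TPM in E15 libraries, 1.83 and 0.942 TPM in P3 libraries, and 2.86, 1.77 and 2.10 TPM in adult libraries. Its difference from E15 to the adult was 1.21 (SE 0.36, limma, Benjamini-Hochberg adjusted p = 0.0290). Smad1, at 12.4 to 34.2 TPM, did not pass. Smad5 made up 58.8% and 55.8% of the summed TPM of Smad1, Smad5 and Smad9 at E15, and 43.8%, 35.8% and 31.2% in the adult.

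In the TGF-beta and activin branch, Smad2 was at 49.3 and 43.2 TPM in E15 libraries, 26.4 and 30.3 TPM in P3 libraries, and 20.5, 8.77 and 14.3 TPM in adult libraries. The stages did not overlap. Smad2 fell by 1.68 on the log2 scale from E15 to the adult (SE 0.33, limma, Benjamini-Hochberg adjusted p = 0.00485). Smad3 did not pass, with 3.04 and 4.21 TPM in E15 libraries and 3.66, 10.1 and 10.2 TPM in adult libraries. The share of Smad2 in the summed TPM of both genes was 94.2% and 91.1% in E15 libraries, 77.4% and 90.0% in P3 libraries, and 84.8%, 46.4% and 58.2% in the adult.

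Smad4, the partner shared by both branches, was at 30.9 and 32.9 TPM in E15 libraries, 26.6 and 25.6 TPM in P3 libraries, and 18.1, 12.02 and 19.3 TPM in adult libraries. It fell by 0.94 on the log2 scale from E15 to the adult (SE 0.26, limma, Benjamini-Hochberg adjusted p = 0.0212). Smad7, an inhibitory Smad that is itself a known target of the pathway, was at 1.37 and 2.12 TPM in E15 libraries, 0.548 and 0.700 TPM in P3 libraries, and 0.309, 0.208 and 0.318 TPM in adult libraries. It fell by 1.09 on the log2 scale (SE 0.33, limma, Benjamini-Hochberg adjusted p = 0.0292). Smad6, the other inhibitory Smad, did not pass, with 3.14 and 1.08 TPM in E15 libraries and 0.462 to 0.600 TPM in the adult. The ubiquitin ligase genes Smurf1 and Smurf2 did not pass in any comparison.

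Of the 3 genes taken in by name alone, Bmp2k rose from E15 to the adult and Tgfb1i1 fell from P3 to the adult, comparisons in which 15.4% of all genes were higher and 13.8% were lower. Bmp2k, an endocytic kinase gene first found as induced by BMP2, was at 2.98 and 4.04 TPM in E15 libraries, 6.67 and 4.49 TPM in P3 libraries, and 15.9, 12.04 and 10.55 TPM in adult libraries, with no overlap between stages. It rose by 1.61 from E15 to the adult (SE 0.34, limma, Benjamini-Hochberg adjusted p = 0.0062). Tgfb1i1 encodes the focal adhesion adaptor Hic-5. It was at 0.660 and 0.790 TPM in E15 libraries, 6.10 and 3.31 TPM in P3 libraries, and 0.264, 2.02 and 0.0873 TPM in adult libraries, and so was highest at P3. The sum of 8 mural cell markers was also highest there (10.8 and 7.63 TPM, then 104 and 72.0 TPM, then 14.5 to 25.9 TPM). Rgs5 made up most of that sum at P3, at 86.1 and 51.6 TPM. Higd1b, Vtn and Kcnj8 were also highest at P3. Pdgfrb was highest in the adult (7.14 to 11.5 TPM, against 4.56 and 2.46 TPM at P3), and the P3 libraries did not lie above all others for Abcc9, Anpep and Cspg4. The part of mural cells in the level of Tgfb1i1 was not tested. Tgfb1i1 fell by 1.78 on the log2 scale from P3 to the adult (SE 0.51, limma, Benjamini-Hochberg adjusted p = 0.0379). Tgfbrap1, whose product associates with TGF-beta receptors, was at 4.87 to 7.90 TPM over all libraries and did not pass.

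**Figure D3:**
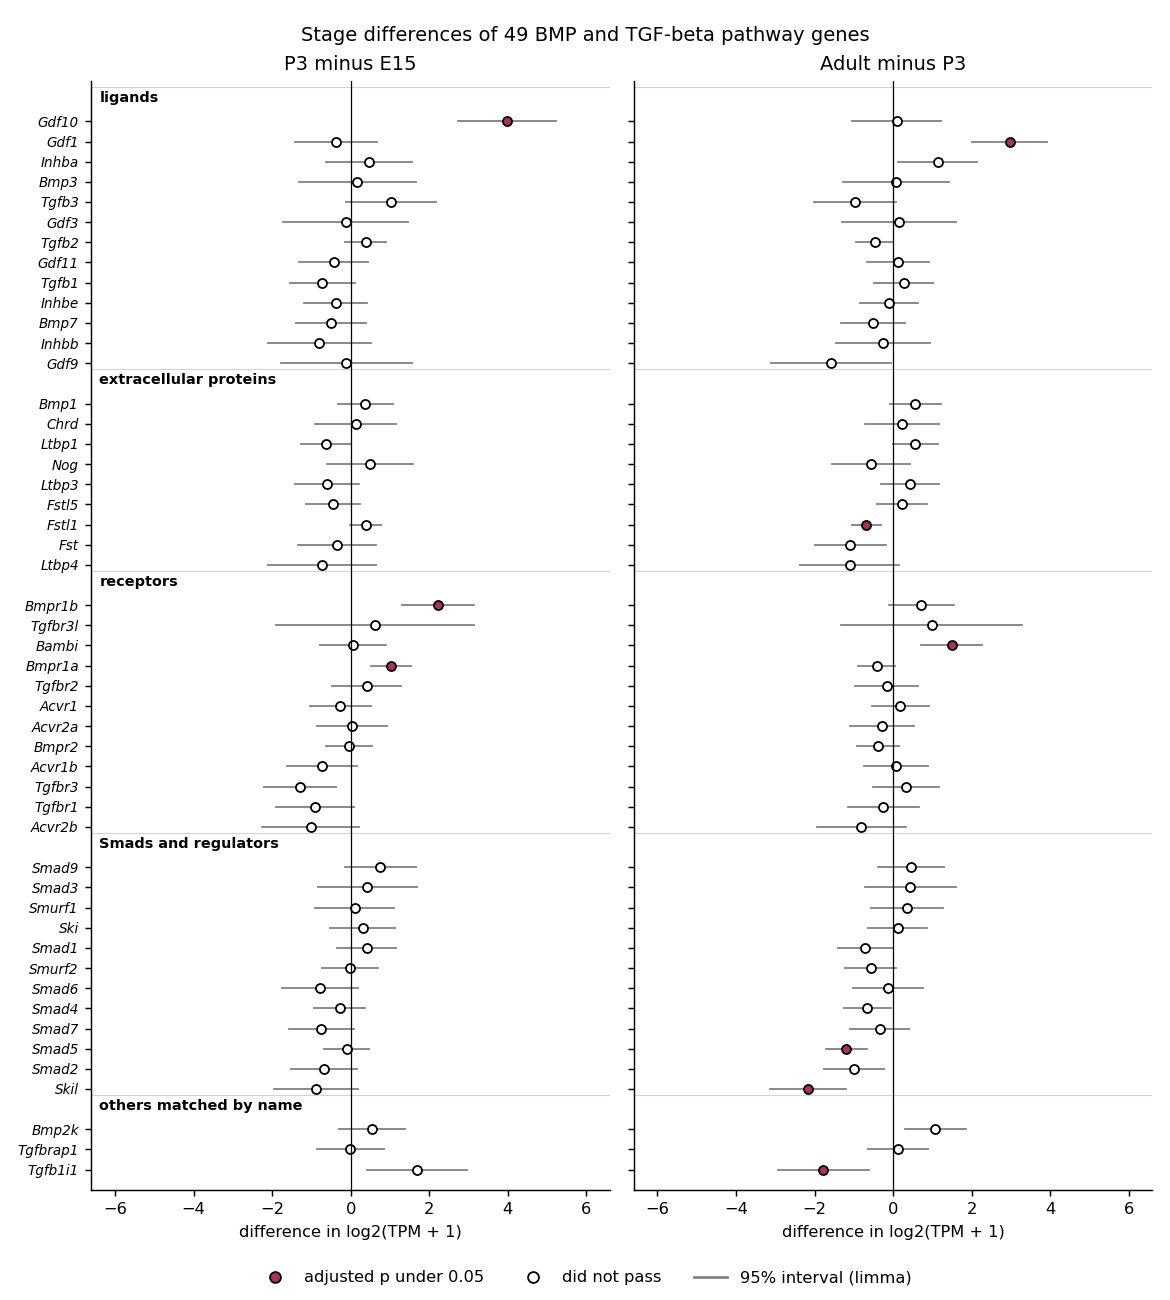
Differences in log2(TPM + 1) of the 49 genes (x axes) from E15 to P3 (left) and from P3 to the adult (right), by role and ordered within a role by the difference from E15 to the adult. Points are limma estimates with 95% intervals; filled points passed the adjusted p of 0.05, 3 genes on the left and 6 on the right.

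The comparison of P3 with E15 sets the first postnatal days against the embryonic stage. Gdf10, Bmpr1b and Bmpr1a were the only genes of the 49 to pass, all higher at P3. These 3 genes are 6.12% of the 49, and across all 15931 genes tested 5.56% were higher and 1.08% were lower (limma, Benjamini-Hochberg adjusted p under 0.05), so the share that rose was near that of all genes. No gene was lower in limma, and at an unadjusted p under 0.05 only Tgfbr3 was, the betaglycan gene (1.60 and 2.90 TPM in E15 libraries, 0.281 and 0.322 TPM at P3). By library, 15 of the 49 (30.6%) lay wholly higher at P3 than at E15 and 18 (36.7%) wholly lower, against 25.3% and 37.2% of all genes. The median difference of the 49 was -0.05, beside -0.15 over all genes. All 3 calls were lost without E15 replicate 2 (limma, Benjamini-Hochberg adjusted p = 0.0802 to 0.1943) and without P3 replicate 1 (0.0521 to 0.191), those of Bmpr1a and Bmpr1b without E15 replicate 1 (0.0667 and 0.112), and that of Bmpr1a without P3 replicate 3 (0.0725). They were also lost in a fit on these 2 stages alone (0.0548 to 0.0799) and with Adult replicates 1 and 3 both left out (0.0542 to 0.0780).

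Between P3 and the adult, Gdf1 and Bambi rose, and Skil, Tgfb1i1, Smad5 and Fstl1 fell. The risen genes are 4.08% and the fallen genes 8.16% of the 49, against 8.39% and 13.8% of all genes tested, so neither share exceeded that of all genes. All adult libraries lay above both P3 libraries for 10 of the 49 (20.4%) and below them for 18 (36.7%), against 19.9% and 29.2% of all genes. The median difference of the 49 was -0.10, beside -0.13 over all genes. Without P3 replicate 3 the calls of Bambi, Fstl1, Skil and Tgfb1i1 were lost (limma, Benjamini-Hochberg adjusted p = 0.0589 to 0.1127), and the log2 difference of Skil was then -1.43. Without P3 replicate 1 those of Bambi, Smad5 and Tgfb1i1 were lost (0.0525 to 0.2036), and the Tgfb1i1 call was also lost without E15 replicate 1, E15 replicate 2, Adult replicate 1 or Adult replicate 3 (0.0807 to 0.0877). With Adult replicates 1 and 3 both left out, Gdf1 alone of these genes kept its call, and other genes of the 49 passed, as given further on. Fits that leave 1 library at a stage, here and in the other comparisons, assume that it varies like those of the other stages.

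From E15 to the adult, 9 genes rose and 10 fell. The 9 were Gdf10, Bmpr1b, Gdf1, Bmp2k, Inhba, Bambi, Smad9, Bmp1 and Bmpr1a (18.4% of the 49, against 15.4% of all genes tested). The 10 were Skil, Ltbp4, Acvr2b, Smad2, Fst, Smad5, Tgfbr1, Smad7, Bmp7 and Smad4 (20.4%, against 24.7%). Both shares were near those of all genes. The adult libraries lay wholly above those of E15 for 9 of the 49 (18.4%) and wholly below for 21 (42.9%), against 22.3% and 38.8% of all genes. The median difference of the 49 was -0.18, beside -0.30 over all genes. The falls of Bmp7, Ltbp4, Smad4 and Tgfbr1 did not pass with median-of-ratios scaling (limma, Benjamini-Hochberg adjusted p = 0.0509 to 0.1134), nor did those of Bmp7, Smad4, Smad7 and Tgfbr1 with quantile normalization (0.0516 to 0.0888). With median-of-ratios scaling the all-gene median was -0.05, and 53% of all called genes were higher, against 38.5% with TPM as deposited, while from P3 to the adult 48.2% were higher against 37.9%. Of the 10 genes that fell, 8 were higher in P3 replicate 3 than in replicate 1, and of the 9 that rose, 8 were higher in P3 replicate 1. The same held over all genes tested: 80.7% of those that fell were higher in P3 replicate 3 and 82.3% of those that rose in P3 replicate 1, so the split was not particular to the 49. The young neuron sum was higher in P3 replicate 3 and the astrocyte sum in replicate 1, and the part of these cell types in the differences was not tested.

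Calls from E15 to the adult depended on single libraries for many genes. Those of Gdf10, Bmpr1b, Gdf1, Skil and Smad5 held in each fit that left out 1 library. Without E15 replicate 1 the calls of Acvr2b, Bmp1, Bmp2k, Bmp7, Bmpr1a, Fst, Inhba, Ltbp4, Smad2, Smad4, Smad9 and Tgfbr1 were lost (limma, Benjamini-Hochberg adjusted p = 0.0614 to 0.2315). Without E15 replicate 2 the same was seen for Acvr2b, Bambi, Bmp1, Bmp7, Bmpr1a, Fst, Inhba, Ltbp4, Smad4, Smad7, Smad9 and Tgfbr1 (0.0674 to 0.2207). Without Adult replicate 1 the calls of Bmp1, Bmpr1a and Smad9 were lost (0.0620 to 0.0716), without Adult replicate 2 those of Bmp7, Ltbp4, Smad7 and Tgfbr1 (0.0532 to 0.0939), and without Adult replicate 3 those of Acvr2b, Bmp7, Bmpr1a, Ltbp4 and Tgfbr1 (0.0510 to 0.1062). Bmp7, Bmpr1a and Tgfbr1 were also lost without P3 replicate 1 (0.0535 to 0.0765) or P3 replicate 3 (0.0528 to 0.0774).

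Over all 3 stages at once, 15 of the 49 genes (30.6%) differed by the moderated F test, beside 37.4% of all genes tested. No gene passed in both steps. Gdf10, Bmpr1b and Bmpr1a passed in the first step, and 6 genes in the second. A further 8 genes were lower and 4 were higher in the adult than at E15 without passing in either step, and 28 passed in no comparison. These patterns over the steps were not counted over all genes, so whether they are particular to the 49 cannot be read from them.

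Other genes of the pathway were described from 4 lists, of which 80 genes passed the TPM filter. Of these, 9 rose and none fell from E15 to P3 (11.2% and 0%; limma, with 7 lower at an unadjusted p under 0.05), 9 rose and 19 fell from P3 to the adult (11.2% and 23.8%), and 18 rose and 19 fell from E15 to the adult (22.5% and 23.8%). The same shares over all genes are those given above for each comparison. From E15 to P3, Plat alone of the 9 kept its call both without E15 replicate 1 and without E15 replicate 2 (limma, Benjamini-Hochberg adjusted p of the others 0.0547 to 0.1729 and 0.0644 to 0.2954), and Plat, Id2 and Itgb5 kept theirs without P3 replicate 1 (others 0.0745 to 0.3216). Of the 28 calls from P3 to the adult, 13 were lost without P3 replicate 1, among them Nbl1, Plat, Tagln, Klf10, Cdkn1a and Map3k7, and 16 without P3 replicate 3, among them Dcn, Itgav, Nbl1, Tgif1, Klf10, Cdkn1a and Map3k7. Many of the 37 calls from E15 to the adult were lost without E15 replicate 1, and many without E15 replicate 2. Calls over all genes also became fewer in both fits. Htra1, Nbl1, Itgav, Itgb5, Nrros, Ctdspl, Tgif1, Tgif2, Id2, Id4, Msx1, Fn1, Fkbp1a, Stub1 and Ywhae kept theirs in both.

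Of 18 further ligands, cofactors and antagonists, 3 rose from E15 to P3 (16.7%, against 5.56% of all genes tested). From P3 to the adult 3 rose (16.7%) and 2 fell (11.1%), against 8.39% and 13.8% of all genes. From E15 to the adult 6 rose (33.3%) and 1 fell (5.56%), against 15.4% and 24.7% of all genes. Htra1 encodes a secreted serine protease that degrades TGF-beta family ligands. It was at 53.0 and 67.2 TPM in E15 libraries, 122.8 and 97.0 TPM in P3 libraries, and 1461, 1576 and 1500 TPM in adult libraries. It rose by 0.86 in the first step and by 3.78 in the second (SE 0.18 and 0.16, limma, Benjamini-Hochberg adjusted p = 0.0261 and 3.57e-05). Nbl1, a BMP antagonist of the DAN family, was at 0.861 and 1.22 TPM in E15 libraries, 4.29 and 4.63 TPM in P3 libraries, and 12.3 to 18.7 TPM in adult libraries (log2 1.63 from P3 to the adult, limma adjusted p = 0.0103). The BMP antagonist gene Chrdl1 and the proteoglycan gene Bgn rose from E15 to P3 (log2 3.04 and 3.16, limma adjusted p = 0.0208 and 0.00764). Dcn, a proteoglycan that binds TGF-beta, fell from P3 to the adult by 2.31 on the log2 scale (limma adjusted p = 0.0113). The sum of 7 meningeal fibroblast markers, which include Dcn, was 18.6 and 30.3 TPM at P3 and 4.12 to 9.83 TPM in the adult. Dcn itself made up most of the P3 sums, at 14.0 and 24.8 TPM, so the sum is no separate measure of these cells. The part of meningeal fibroblasts in the level of Dcn was not tested.

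Among 9 genes for the release of latent TGF-beta, 4 rose from E15 to P3 (44.4%, against 5.56% of all genes tested). From P3 to the adult 3 rose (33.3%) and 2 fell (22.2%), against 8.39% and 13.8% of all genes. From E15 to the adult 5 rose (55.6%) and 1 fell (11.1%), against 15.4% and 24.7% of all genes. Itgav, the alpha chain of integrins that release TGF-beta from its latent complex, was at 44.8 and 29.8 TPM in E15 libraries, 137 and 95.2 TPM in P3 libraries, and 430, 284 and 454 TPM in adult libraries. It rose by 1.62 and then by 1.73 (limma, Benjamini-Hochberg adjusted p = 0.0177 and 0.00374). Its partner gene Itgb5 was at 0.0418 TPM in 1 E15 library and listed at 0 in the other, at 16.3 and 6.71 TPM at P3, and at 22.2, 38.1 and 27.7 TPM in the adult. Plat, the tissue plasminogen activator gene, peaked at P3, with 8.95 and 7.29 TPM in E15 libraries, 170 and 95.8 TPM in P3 libraries, and 17.5 to 38.1 TPM in adult libraries. It rose by 3.83 and then fell by 2.17 on the log2 scale (limma, Benjamini-Hochberg adjusted p = 0.0013 and 0.00517). Nrros, which anchors latent TGF-beta1 on microglia, was at 1.13 and 1.40 TPM in E15 libraries and at 16.0, 24.2 and 19.9 TPM in the adult. The microglia sum rose over the same stages, and the part of microglia in the level of Nrros was not tested.

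None of 33 intracellular regulators passed from E15 to P3 (limma, 3 higher and 5 lower at an unadjusted p under 0.05). Of all genes tested, 5.56% were higher and 1.08% lower. From P3 to the adult 7 fell (21.2%) and none rose (limma, 2 higher at an unadjusted p under 0.05), against 13.8% and 8.39% of all genes. From E15 to the adult 2 rose (6.06%) and 13 fell (39.4%), against 15.4% and 24.7% of all genes. The one with the highest mean, Ywhae, a 14-3-3 adaptor gene, differed by 0.22 from E15 to P3 (limma adjusted p = 0.305) and fell by 1.07 on the log2 scale from P3 to the adult (limma adjusted p = 0.000682). Tgif1 and Tgif2, which encode homeodomain repressors of Smad2 and Smad3, were among those that fell in the second step. Tgif2 was at 35.4 and 39.3 TPM in E15 libraries, 20.7 and 28.9 TPM in P3 libraries, and 3.82, 4.55 and 5.12 TPM in adult libraries, and fell by 2.22 on the log2 scale from P3 to the adult (SE 0.27, limma, Benjamini-Hochberg adjusted p = 0.00136). Tgif1 fell by 1.30 (adjusted p = 0.00728), and Map3k7, the TAK1 kinase of the Smad-independent branch, by 1.32 on the log2 scale (adjusted p = 0.0117). Ctdspl, whose product belongs to a family of small phosphatases that act on Smads, was 1 of the 2 that rose from E15 to the adult (log2 2.12, limma adjusted p = 0.00201).

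**Figure D4:**
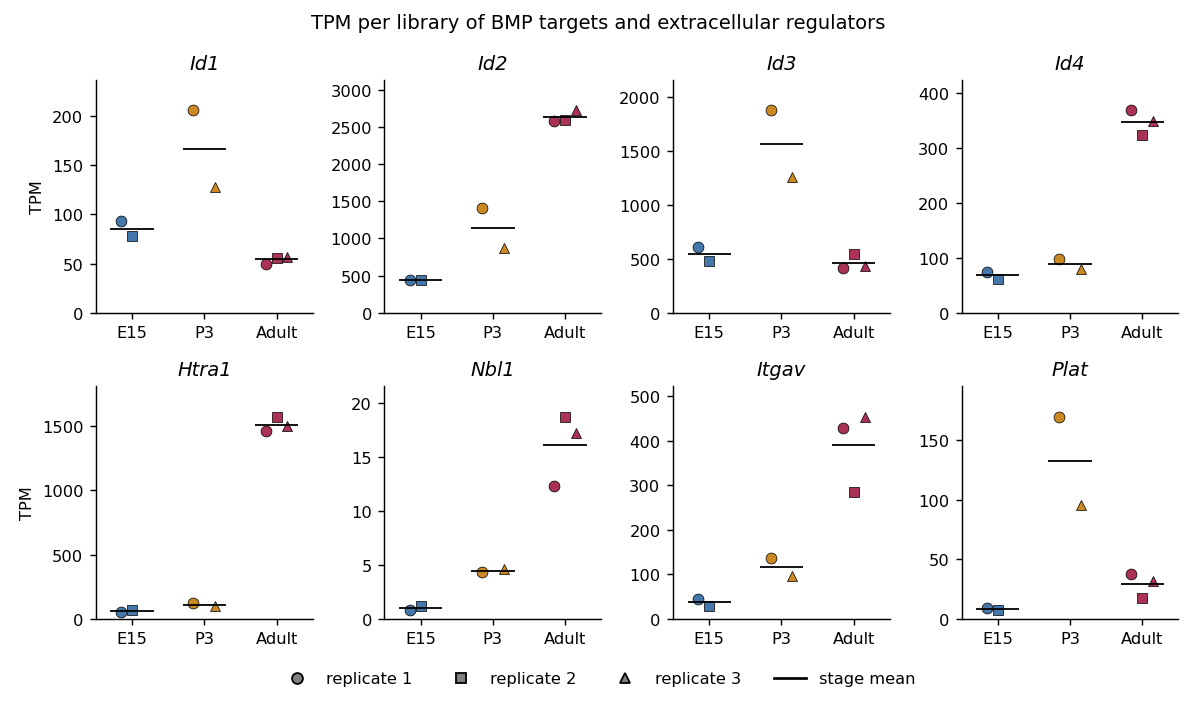
TPM of 8 further pathway genes (y axis, linear from 0) by stage (x axis); each symbol is 1 library, its shape the replicate number, and the line the stage mean. Id1, Id3 and Plat are highest at P3, while Id2, Id4, Htra1, Nbl1 and Itgav are highest in the adult.

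Of 20 known target genes, 2 rose from E15 to P3 (10%, against 5.56% of all genes tested). From P3 to the adult 3 rose (15%) and 8 fell (40%), against 8.39% and 13.8% of all genes. From E15 to the adult 5 rose (25%) and 4 fell (20%), against 15.4% and 24.7% of all genes. The Id genes, which encode inhibitors of bHLH factors and are the classical BMP targets, fell into 2 patterns. Id3 was at 613 and 475 TPM in E15 libraries, 1876 and 1254 TPM in P3 libraries, and 417, 541 and 433 TPM in adult libraries, so that it rose by 1.51 and then fell by 1.73 on the log2 scale (limma, Benjamini-Hochberg adjusted p = 0.00658 and 0.00121). Id1 fell likewise in the second step, by 1.57 on the log2 scale (limma adjusted p = 0.00254), from 206 and 128 TPM at P3 to 49.5, 56.0 and 57.0 TPM. Id2 rose in both steps, by 1.33 and 1.25 (limma adjusted p = 0.00658 and 0.00269), to 2576, 2602 and 2726 TPM in the adult. Id4 rose in the second step from 98.3 and 78.5 TPM to 368, 323 and 349 TPM (log2 1.97, limma adjusted p = 0.000359).

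Among the other targets, Msx1, a homeobox gene, was higher in the adult than at E15 (log2 2.80, limma, Benjamini-Hochberg adjusted p = 0.00124), with 0.985 and 0.904 TPM in E15 libraries and 10.4 to 15.4 TPM in the adult. The fibronectin gene Fn1 fell by 2.69 on the log2 scale between the same stages (adjusted p = 0.000897). From P3 to the adult the smooth muscle gene Tagln and the TGF-beta early response gene Klf10 fell by 2.71 and 2.16 on the log2 scale (limma adjusted p = 0.0105 and 0.0442; the Klf10 call was lost on leaving out any library but Adult replicate 2), and the cell cycle inhibitor gene Cdkn1a rose by 2.12 (limma adjusted p = 0.024). The mural cell sum given beside Tgfb1i1, most of it Rgs5 at P3, fell over the same step. The part of mural cells in the fall of Tagln was not tested.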

How the data were processed

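TPM values (transcripts scaled to a fixed total in each library) were computed by the authors and deposited as a single table. The tools named per the submitters' processing notes are bcl2fastq and Bowtie, with mm9 as genome build; no source used here names the quantification program or annotation. TPM values were used as deposited, since they keep no depth and allow no count model. Values were transformed to log2(TPM + 1), and the 15931 genes that reached 1 TPM in 2 or more libraries were fitted together in limma 3.58.1 (R 4.3.3) with stage as the only term and a mean-variance trend (4 residual degrees of freedom, prior 4.27). Benjamini-Hochberg adjustment ran over all genes tested, at 0.05. The fit was tested on simulated data.

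The genes, lists and alternatives were chosen with earlier results of these data known. Statistics are printed for up to 10 genes that passed in each direction and comparison, for the gene with the highest mean of each role, and for up to 3 genes of each other list. Id1 and Id4 were added after their values were seen, as were Cers1 and genes named with levels alone. Upstream sequences came from RefSeq (GRCm38.p6), matched by symbol for 34 of the 49 genes. No row of the 49 was identical to another row. Alternatives were pseudocounts of 0.1 and 5, no filter, a mean of at least 5 TPM, 2 scalings, no trend, a replicate block, 2 stages alone, and libraries left out.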

Additional observations from a re-analysis of the deposited data

How the results depend on the processing

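None of the 28 calls on the 49 genes over the 3 comparisons changed direction under any alternative, and 6 of them held under all: Bmpr1b, Gdf10, Gdf1, Skil and Smad5 from E15 to the adult, and Gdf1 from P3 to the adult. The number of the 49 genes that were higher from E15 to P3 was 0 with 2 stages alone, 0 with Adult replicates 1 and 3 both left out, and 0 to 3 with 1 library left out (3 as reported). From P3 to the adult, with Adult replicates 1 and 3 both left out, 1 was higher (2 as reported) and 2 were lower (4 as reported). With 1 library left out, 1 to 3 were higher and 1 to 5 were lower. From E15 to the adult, 6 were lower with no filter, 6 with median-of-ratios scaling and 6 with quantile normalization (10 as reported), and with 1 library left out 4 to 10 were higher and 3 to 11 were lower. By the F test 9 differed with the replicate block (15 as reported), and 6 to 12 with 1 library left out. Of the other pathway genes, 4 were higher from E15 to P3 with 2 stages alone and 4 with Adult replicates 1 and 3 both left out (9 as reported). From P3 to the adult, leaving out both adult libraries gave 4 higher and 12 lower (9 and 19 as reported). From E15 to the adult, 12 were lower with no filter, 12 with median-of-ratios scaling and 11 without both adult libraries (19 as reported). With 1 library left out, the other pathway genes gave 1 to 9 higher from E15 to P3, 4 to 9 higher and 8 to 18 lower from P3 to the adult, and 11 to 20 higher and 7 to 16 lower from E15 to the adult. Calls over all genes tested became fewer as well. From E15 to P3, 387 of all genes were higher with 2 stages alone (885 as reported). From E15 to the adult, 3680 of all genes were lower with no filter, 2727 with median-of-ratios scaling and 3250 with quantile normalization (3930 as reported). The cause of these changes was not tested, other than that fits without libraries hold fewer samples. Deviations from the stage means correlated at -0.0232 to 0.0207 over the same-numbered pairs, so no strong shared deviation by replicate number was seen. With so few libraries per stage, this cannot show whether same-numbered libraries were paired or processed together. With the replicate block the calls of Bmpr1a (limma, Benjamini-Hochberg adjusted p = 0.1471) from E15 to P3, of Fstl1 (0.0655) from P3 to the adult, and of Bmp1, Bmp7, Bmpr1a, Ltbp4, Smad7, Smad9 and Tgfbr1 (0.0600 to 0.1336) from E15 to the adult were lost. An unknown depth limits what can be said of genes listed at 0.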
